A study of Mus musculus with 64 samples.

Results

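Cdx1, Cdx2, Hnf4a, Hnf4g, Elf3 and Vdr encode transcription factors that act in the intestinal epithelium. They were taken by symbol, and all 6 were found among the 23997 gene symbols of the time course libraries and the 23995 of a second cohort. All 6 passed the filter on low values in both cohorts, which kept genes at 1 FPKM or more in 4 or more libraries.

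The libraries were made from the colon of C57BL/6 mice, either from wound beds left by a pinch biopsy or from sham-treated mucosa. In the time course, 22 biopsy and 19 sham libraries were collected at 1 h (6 biopsy, 4 sham), 6 h (5 and 5), 3 d (6 and 5) and 6 d (5 and 5). The second cohort held 11 biopsy and 12 sham libraries, for which the labels' protocol gives collection 6 h after biopsy. Its libraries carry abx in their titles (5 biopsy, 6 sham) or veh (6 biopsy, 6 sham), and the study gave broad-spectrum antibiotics in the drinking water. The condition field goes against these titles: abx-titled libraries are entered there as controls and veh-titled ones as antibiotic treated. The arms are therefore named by their titles, and no direction is given for antibiotics. The labels name no allele, transgene, age or sex, and do not say that each library came from its own animal, so p-values measure the spread between libraries only.

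Expression was given as FPKM, a fragment level scaled by transcript length and library size, without counts, so the read depth behind a value is unknown. Summed over all genes, a time course library held between 414318 and 522098 FPKM and an arm library between 229752 and 266646, so levels were not compared between cohorts. Of the colon markers Slc26a3, a chloride exchanger of surface colonocytes, was at 441 ± SD 76.0 FPKM in 6 h shams, and the summed stomach markers were at most 1.14 FPKM in any library. Small intestinal markers summed to 5.32 to 109.8 FPKM in abx-titled shams and 7.17 to 35.8 in abx-titled biopsies. Libraries of the remaining groups held at most 21.2 FPKM of them. In both abx-titled groups 4 of the 5 small intestinal markers averaged under 1 FPKM. The source of the high sums was not tested. The 12 pan-epithelial markers, all measured, had median sums of 3904 FPKM in shams and 4498 in biopsies at 1 h. The medians were 3656 and 4039 at 6 h, 3418 and 3707 at 3 d, and 3693 and 3680 at 6 d. In the abx-titled arm they were 1968 and 2330, and in the veh-titled arm 1965 and 2268. The single markers were split in direction. By limma's adjusted threshold, 5 rose and 2 fell at 1 h, and 4 rose and 4 fell at 6 h. At 3 d 5 rose and 0 fell, and at 6 d 2 rose and 2 fell. In the abx-titled arm 4 rose and 5 fell, and in the veh-titled arm 5 rose and 6 fell. Their median log2 changes were 0.08, -0.03, 0.10 and -0.001 from 1 h to 6 d, and 0.06 and -0.13 in the arms. Markers of other cell types also differed. Neutrophil markers summed to 15.6 to 880.1 FPKM in biopsies against 0.147 to 2.03 in shams. Squamous epithelium markers, keratins with Trp63 and Dsg3, summed to 24.7 to 167 FPKM against 0.515 to 4.57. In 3 d and 6 d biopsies, 5 of the 7 squamous markers averaged under 1 FPKM. Which cells held the squamous marker RNA was not tested. Hemoglobin and other red cell genes reached 6065 FPKM in 1 h biopsies. At 6 d fibroblast markers summed to 669.9 to 948 FPKM in biopsies against 340.1 to 423 in shams, and endothelial markers to 33.1 to 41.3 against 14.8 to 21.8. Colon markers at 6 d summed to 1513 to 1988 FPKM in biopsies against 2651 to 3124 in shams. Their median sums were 3222 in biopsies and 3506 in shams at 1 h, 4000 and 3423 at 6 h, and 2081 and 3614 at 3 d. In the abx-titled arm these medians were 921 and 1523, and in the veh-titled arm 1790 and 2254. At 3 d all 5 smooth muscle markers fell, with sums of 327 to 929 FPKM against 700.0 to 1917. The part of these cells in the results below was not tested, and in bulk RNA fewer cells of a type and less RNA per cell cannot be told apart.

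CDX1 and CDX2 are caudal-type homeodomain factors, and CDX2 is required for intestinal rather than foregut identity. HNF4A and HNF4G are closely related orphan nuclear receptors that bind enhancers of enterocyte genes together with CDX2. ELF3 is an ETS factor of epithelia, and VDR is the nuclear receptor for the active form of vitamin D, which pairs with a retinoid X receptor to control calcium transport genes. Vdr is itself a known target of CDX2 in the intestine.

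The promoters of Vdr and Hnf4a are shown because these genes had the most persistent fall and the only rise at 1 h. Each run holds the bases before the RefSeq start (GRCm38.p6, the mm10 build) that lie in no annotated exon, from 5′ to 3′ on the gene's strand, with the letters GGAAG of an ETS site in capitals. Hnf4a has a distal and a proximal promoter, and the gene-level FPKM does not separate their transcripts. The Vdr start lies inside the annotated gene, downstream of its outermost start.
Vdr, chr15:97908311-97908546, minus strand: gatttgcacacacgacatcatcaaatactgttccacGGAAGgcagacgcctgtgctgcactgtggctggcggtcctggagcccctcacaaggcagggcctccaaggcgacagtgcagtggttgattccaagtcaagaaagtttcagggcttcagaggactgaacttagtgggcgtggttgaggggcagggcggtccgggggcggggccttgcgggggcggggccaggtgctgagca
Hnf4a distal, chr2:163506607-163506807, plus strand: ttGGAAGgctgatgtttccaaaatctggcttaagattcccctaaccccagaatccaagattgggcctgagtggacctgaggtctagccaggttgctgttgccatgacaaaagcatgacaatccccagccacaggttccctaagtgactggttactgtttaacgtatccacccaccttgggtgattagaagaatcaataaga
Hnf4a proximal, chr2:163546943-163547154, plus strand: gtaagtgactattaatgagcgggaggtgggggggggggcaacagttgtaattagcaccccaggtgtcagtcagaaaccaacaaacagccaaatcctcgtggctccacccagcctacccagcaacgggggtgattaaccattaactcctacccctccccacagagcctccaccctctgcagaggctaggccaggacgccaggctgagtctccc

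RefSeq promoters were searched for 4 of the 6 genes: Cdx2, Hnf4a, Elf3 and Vdr. Searched on both strands of the 250 bases before each start, GGAAG occurred in 64.1% of all 32851 promoters, the caudal motif TTTAT in 37.3%, the HNF4 core CAAAG in 48.6%, the nuclear receptor core AGGTCA in 14.0% and TATAAA, which can overlap TTTAT on the other strand, in 12.4%. The Vdr window held 1 of the motifs searched, GGAAG at 214 bases before the start. The Hnf4a distal window held GGAAG at 248 bases and, in an exon not printed, at 13 bases. The Hnf4a proximal window held it at 221 bases, outside the printed stretch. These letter matches are descriptions and not binding sites.

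At 1 h, 4 of the 6 genes passed limma's adjusted p threshold of 0.05 (1 higher, 3 lower), beside 54.3% of all 13285 genes tested (9.38% higher, 45.0% lower). At 6 h 3 passed, all lower, beside 67.5% of all genes (24.3% higher, 43.2% lower). At 3 d 2 passed, both lower, beside 42.6% (32.1% higher, 10.5% lower). At 6 d 2 passed, both lower, beside 44.2% (34.1% higher, 10.2% lower). Of 11849 genes tested in the arms, 70.5% passed in the abx-titled arm (26.5% higher, 43.9% lower), among them 5 of the 6 genes (2 higher, 3 lower). In the veh-titled arm 74.7% passed (25.7% higher, 49.0% lower), among them 4 of the 6 (1 higher, 3 lower). The share of members that passed was thus above the background in some comparisons and below it in others. Their median log2 change lay between -0.25 at 1 h and -0.05 at 3 d, beside medians over all genes of -0.18 and 0.09. Sham and biopsy libraries did not overlap for 3, 1, 2 and 2 of the 6 genes at 1 h, 6 h, 3 d and 6 d, and for 4 and 3 in the abx- and veh-titled arms. The corresponding shares of all genes were 38.3%, 53.3%, 20.2%, 33.0%, 44.4% and 62.2%.

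**Figure D1:**
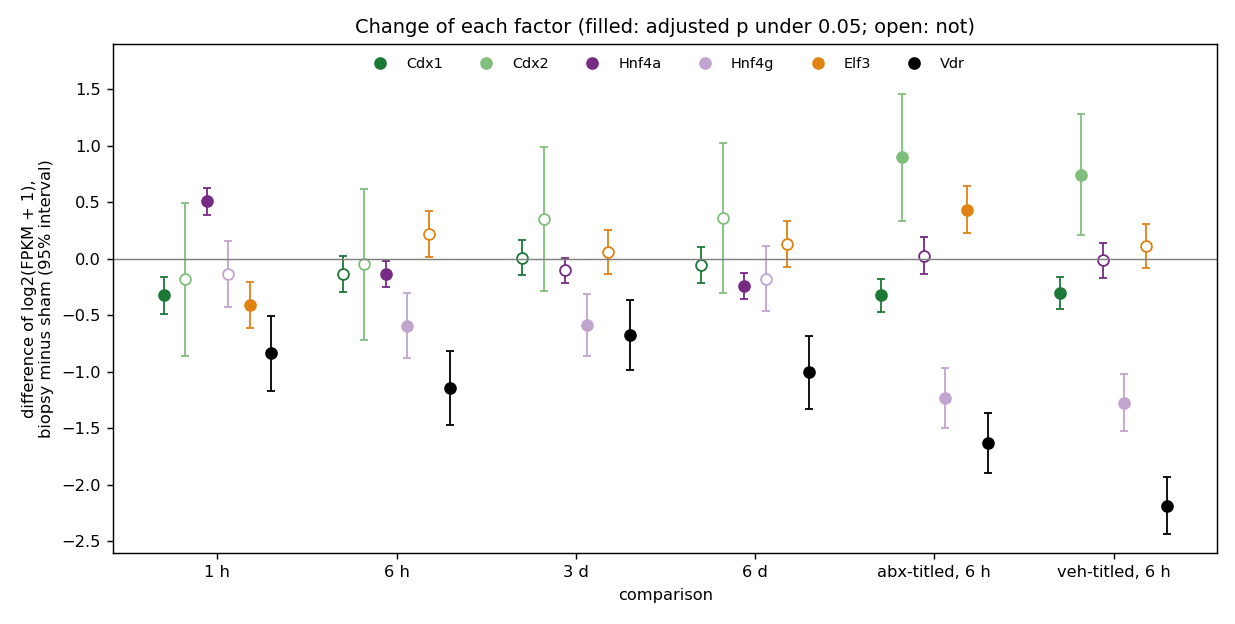
Change of each of the 6 genes in biopsies against shams, as the difference of mean log2(FPKM + 1) with 95% confidence intervals, at the 4 times and in both arms (filled points passed the adjusted threshold, open points did not). Vdr lies below 0 in every comparison, from -0.67 at 3 d to -2.18 in the veh-titled arm, while Hnf4a is above 0 at 1 h (0.51) and below it at 6 d (-0.24).

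Vdr (ENSMUSG00000022479.15; chr15:97854425-97910630, minus strand, mm10) fell in all 6 comparisons, with no overlap between biopsy and sham libraries in any of them. At 1 h the shams were at 75.8, 98.3, 108 and 109 FPKM and the biopsies between 38.4 and 67.9, with a median of 56.7. At 6 h the shams were at 117, 145, 150.1, 151 and 173 FPKM and the biopsies at 40.7, 52.8, 71.5, 77.1 and 102. The highest 6 h biopsy thus stayed below the lowest 6 h sham, and the biopsies spread more widely than the shams.

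At 3 d the Vdr shams were at 134, 136, 153, 155 and 172 FPKM and the biopsies between 80.7 and 123, with a median of 91.6. At 6 d the shams were at 149, 163, 167, 173 and 185 FPKM and the biopsies at 69.9, 77.4, 85.0, 89.2 and 94.4. Mean Vdr in biopsies was 55.9%, 46.8%, 62.8% and 49.7% of the sham mean at 1 h, 6 h, 3 d and 6 d. The receptor's transcript therefore remained below sham level through 6 d.

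The log2 changes of Vdr in the time course were -0.84 ± SE 0.16 (adjusted p = 4.80e-05) at 1 h, -1.14 ± SE 0.16 (adjusted p = 1.20e-07) at 6 h, -0.67 ± SE 0.15 (adjusted p = 0.000601) at 3 d and -1.005 ± SE 0.16 (adjusted p = 5.55e-06) at 6 d. Between 0.896% and 2.92% of all genes fell further than Vdr at these times. The change from 6 h to 3 d, 0.47 ± SE 0.22, missed the adjusted threshold (adjusted p = 0.073). It passed on leaving out 6 h biopsy 6 (0.63, adjusted p = 0.00993) or 6 h sham 4 (0.55, adjusted p = 0.0407).

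In the abx-titled arm, Vdr was between 65.8 and 84.3 FPKM in shams (median 73.0) and at 17.7, 21.2, 21.9, 25.7 and 33.5 in biopsies. In the veh-titled arm, shams lay between 75.9 and 95.7 FPKM (median 87.4) and biopsies between 15.1 and 22.9 (median 17.7). Every biopsy in either arm was below every sham of both arms. Biopsy means were 32.0% and 21.3% of the sham means, with log2 changes of -1.63 ± SE 0.13 (adjusted p = 2.31e-10) and -2.18 ± SE 0.12 (adjusted p = 7.44e-13), and only 0.760% and 0.186% of genes fell further.

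A difference in the Vdr fall between the arms was not shown at the adjusted threshold: the abx-titled change minus the veh-titled change was 0.55 ± SE 0.18 (adjusted p = 0.0793). Without abx-titled biopsy 3 it was 0.65 (adjusted p = 0.0305).

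**Figure D2:**
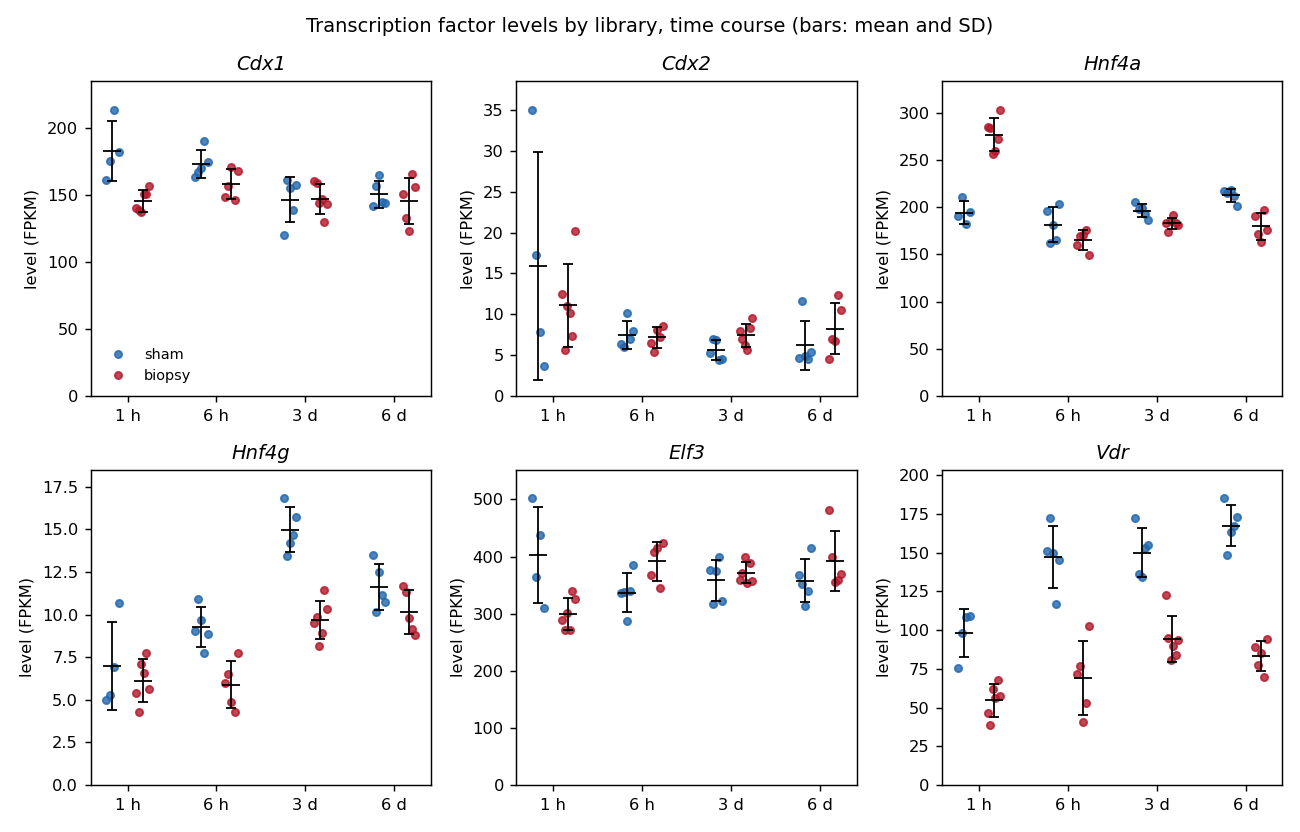
FPKM of the 6 genes in each time course library, on axes of their own for each gene, with sham and biopsy libraries side by side at 1 h, 6 h, 3 d and 6 d and bars at each group's mean and SD. Vdr biopsies lie below their shams at all 4 times, and the 1 h biopsies of Hnf4a (256 to 303 FPKM) lie above every other group of that gene.

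Of 15 genes listed for the vitamin D system, 9 passed the filter among the time course libraries and 8 in the arms. Cyp24a1, which degrades active vitamin D, and Cyp27b1, which makes it, were among the 6 not tested. At 1 h, 8 of 9 fell and none rose (median -0.57, beside -0.18 for all genes, of which 45.0% fell). Scaling by median of ratios left 5 of the 9 lower. The retinoid X receptors that VDR pairs with fell, Rxra from 19.4 to 14.0 FPKM (-0.44 ± SE 0.05, adjusted p = 8.46e-09) and Rxrb from 22.5 to 14.0 FPKM (-0.65 ± SE 0.07, adjusted p = 3.16e-10). Trpv6, an apical calcium channel and VDR target, fell from 39.5 to 18.2 FPKM (-1.03 ± SE 0.28, adjusted p = 0.00198).

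The calcium transport genes did not follow Vdr at every time. At 6 h, 3 of 9 vitamin D genes rose and 5 fell (median -0.42), beside 24.3% and 43.2% of all genes. S100g, the calcium-binding protein calbindin-D9k, rose from 38.3 to 86.0 FPKM at 6 h (1.13 ± SE 0.47, adjusted p = 0.0321) and Trpv6 from 10.4 to 18.2 FPKM (0.70 ± SE 0.27, adjusted p = 0.0234). The S100g call was lost without 6 h biopsy 3 (0.90, adjusted p = 0.106), sham 1 or sham 3, and the Trpv6 call without 6 h biopsy 3 (0.53, adjusted p = 0.0948), biopsy 5 or sham 1. At 6 d S100g fell from 107 to 39.8 FPKM (-1.38 ± SE 0.47, adjusted p = 0.0161), a call lost without 6 d sham 2 (-1.18, adjusted p = 0.0516).

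Slc30a10, a manganese exporter induced by vitamin D, fell at all 4 times, from 4.81 to 1.14 FPKM at 1 h (-1.49 ± SE 0.25, adjusted p = 4.87e-06) and from 1.99 to 0.444 FPKM at 6 d (-1.004 ± SE 0.24, adjusted p = 0.00122). At 3 d, 3 of 9 of the list fell and none rose, with 5 lower under each of median of ratios, quantile normalization and epithelial scaling. At 6 d, 5 fell and 2 rose, and none rose with scaling by median of ratios. Of all genes, 10.5% fell and 32.1% rose at 3 d, and 10.2% fell and 34.1% rose at 6 d.

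Of 8 vitamin D genes, 4 fell in the abx-titled arm and 5 in the veh-titled arm, beside 43.9% and 49.0% of all genes. In each arm 1 vitamin D gene rose, beside 26.5% and 25.7% of all genes. The gene that rose was Atp2b1, a calcium pump of the basolateral membrane, from 12.9 to 27.7 FPKM (1.05 ± SE 0.08, adjusted p = 6.08e-11) and from 19.9 to 33.5 FPKM (0.72 ± SE 0.07, adjusted p = 6.73e-09). Cldn2, a claudin that lets cations pass between cells, fell from 20.8 to 9.57 FPKM and from 18.8 to 9.42 FPKM.

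Hnf4a (ENSMUSG00000017950.16; chr2:163506808-163572910, plus strand) rose at 1 h, the only rise among the 6 genes at that time. Its 1 h shams were at 182, 190.2, 195 and 210.4 FPKM and its 1 h biopsies between 256 and 303, with a median of 278. The lowest biopsy was above the highest sham, and above every library of the other 7 time course groups. The mean rose 1.42-fold (log2 change 0.51 ± SE 0.06, adjusted p = 4.39e-09).

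At 6 h, Hnf4a shams were at 162, 165, 181, 196 and 204 FPKM and biopsies at 149, 159.9, 169.8, 170.4 and 176. The groups overlapped, and the log2 change of -0.13 ± SE 0.06 passed narrowly (adjusted p = 0.039). The call was lost on leaving out any of 6 h biopsies 1 and 6 or 6 h shams 1, 3 and 5, in a fit of the 6 h groups only (adjusted p = 0.127) and with epithelial scaling (adjusted p = 0.0716), and the direction turned under median of ratios (0.01). At 3 d, shams were at 186, 193, 198, 199 and 206 FPKM and biopsies between 173 and 192 (median 183), a change of -0.10 ± SE 0.05 (adjusted p = 0.134). That change passed after scaling by median of ratios (-0.21, adjusted p = 0.0203).

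At 6 d, Hnf4a shams were at 201, 211, 215, 217 and 218 FPKM and biopsies at 163, 171, 176, 190.4 and 197. No biopsy reached the lowest sham, and the mean was 84.6% of sham (-0.24 ± SE 0.06, adjusted p = 0.000882). In the abx-titled arm, shams lay between 73.3 and 93.0 FPKM (median 82.97) and biopsies were at 73.6, 83.1, 83.1, 84.1 and 101.4. In the veh-titled arm, shams lay between 90.7 and 108 FPKM (median 100.2) and biopsies between 92.7 and 113 (median 95.9). The groups overlapped in both arms, with changes of 0.03 ± SE 0.08 (adjusted p = 0.754) and -0.01 ± SE 0.08 (adjusted p = 0.884). The veh-titled value became 0.24 (adjusted p = 0.023) under median of ratios.

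The antisense transcript Hnf4aos overlaps Hnf4a, and its own level was at most 0.119 FPKM in any of the 64 libraries. Whether the authors' counting used strand is not given in the sources used here.

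Hnf4g (ENSMUSG00000017688.14; chr3:3508030-3658052, plus strand), the less abundant paralog on the FPKM scale in every group, fell at 6 h, 3 d and in both arms. At 1 h its shams were at 4.99, 5.31, 6.95 and 10.7 FPKM and its biopsies between 4.26 and 7.74 (median 6.11). At 6 h shams were at 7.76, 8.87, 9.07, 9.68 and 10.9 FPKM and biopsies at 4.29, 4.86, 5.96, 6.53 and 7.76. The 1 h groups overlapped broadly, and at 6 h only the highest biopsy reached the lowest sham.

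At 3 d, Hnf4g shams were at 13.5, 14.2, 14.7, 15.7 and 16.8 FPKM and biopsies between 8.14 and 11.4 (median 9.67). At 6 d, shams were at 10.2, 10.7, 11.1, 12.5 and 13.5 FPKM and biopsies at 8.81, 9.18, 9.83, 11.4 and 11.7. The groups were separate at 3 d and overlapped again at 6 d. The log2 changes were -0.13 ± SE 0.14 (adjusted p = 0.452) at 1 h, -0.59 ± SE 0.14 (adjusted p = 0.000388) at 6 h, -0.58 ± SE 0.14 (adjusted p = 0.000707) at 3 d and -0.18 ± SE 0.14 (adjusted p = 0.319) at 6 d. Biopsy means were 63.5% of sham at 6 h and 64.6% at 3 d.

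Hnf4g in the abx-titled arm lay between 6.17 and 8.95 FPKM in shams (median 8.24) and at 1.97, 2.22, 2.43, 3.26 and 4.14 in biopsies. The veh-titled shams lay between 5.65 and 7.60 FPKM (median 7.09) and biopsies between 1.72 and 2.94 (median 2.29). No biopsy of either arm overlapped a sham. Sham means were 2.79-fold and 3.02-fold higher than biopsy means, with log2(FPKM + 1) changes of -1.23 ± SE 0.13 (adjusted p = 1.66e-08) and -1.27 ± SE 0.12 (adjusted p = 3.46e-09).

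**Figure D3:**
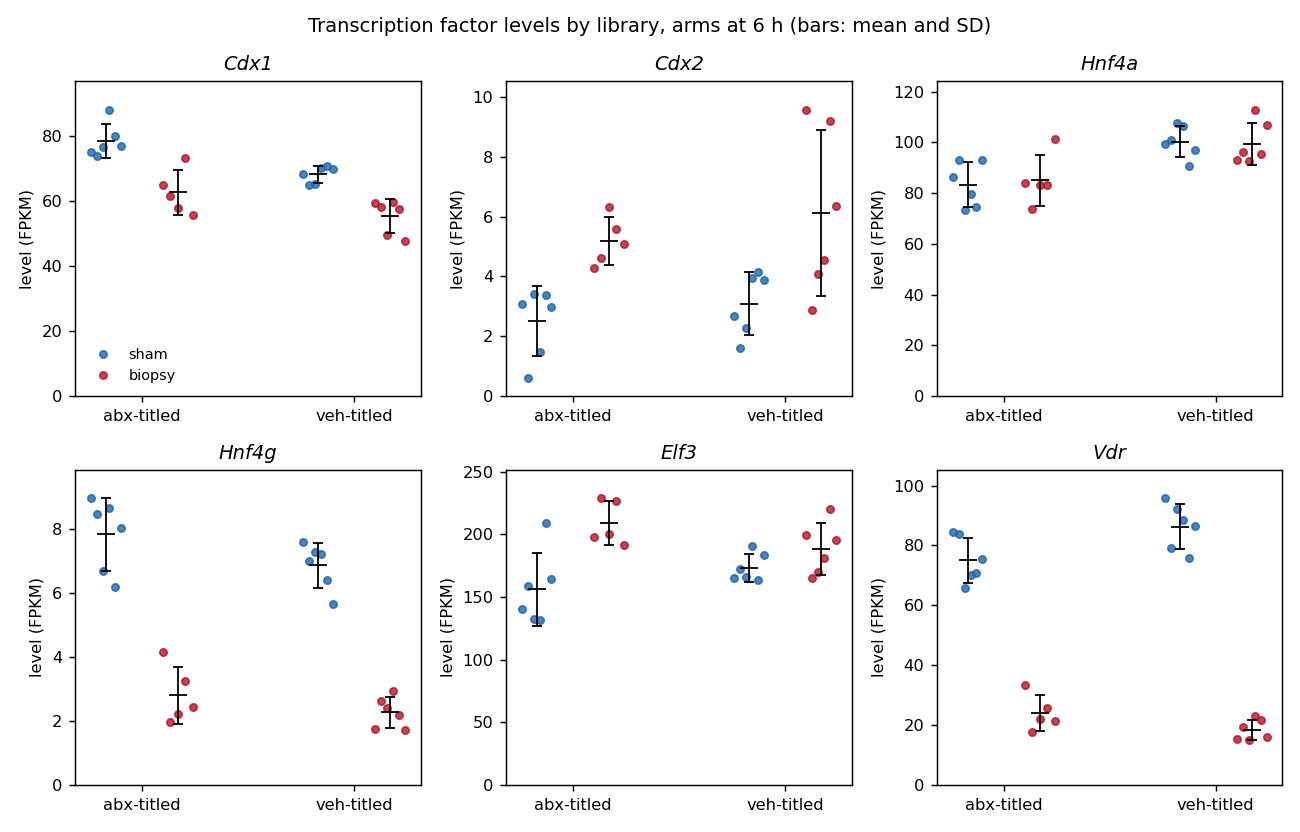
FPKM of the 6 genes in each library of the abx- and veh-titled arms, sham beside biopsy, on axes of their own for each gene, with bars at each group's mean and SD. Vdr and Hnf4g biopsies lie below all shams in both arms, and Hnf4a biopsies lie among their shams.

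Within each library, the level of Hnf4a was divided by that of Hnf4g, which needs no scaling between libraries. The median ratio was 21.3 in 6 h shams and 26.8 in 6 h biopsies, and 13.1 in 3 d shams and 18.5 in 3 d biopsies. In the abx-titled arm it was 11.0 in shams and 37.3 in biopsies, and in the veh-titled arm 14.6 and 41.2. By two-sided exact permutation tests, adjusted over 6 comparisons, the ratio was higher in biopsies at 3 d (1.44-fold, adjusted p = 0.00866), in the abx-titled arm (2.93-fold, adjusted p = 0.00866) and in the veh-titled arm (3.04-fold, adjusted p = 0.00866), each with no overlap between groups.

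At 6 h the ratio was 1.46-fold higher with overlapping groups (exact permutation test, adjusted p = 0.0476). That call was lost with a pseudocount of 1 (adjusted p = 0.0833) and on leaving out any 6 h library other than biopsy 6 (adjusted p from 0.0714 to 0.0952 where lost). At 1 h the median ratio was 32.1 in shams and 46.1 in biopsies (1.58-fold, adjusted exact p = 0.103), and at 6 d it was 18.7 and 16.6 (0.965-fold, adjusted exact p = 0.69). The Hnf4a to Hnf4g ratio thus differed between groups at 3 d and in the arms and was not shown to differ at 1 h or 6 d.

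**Figure D4:**
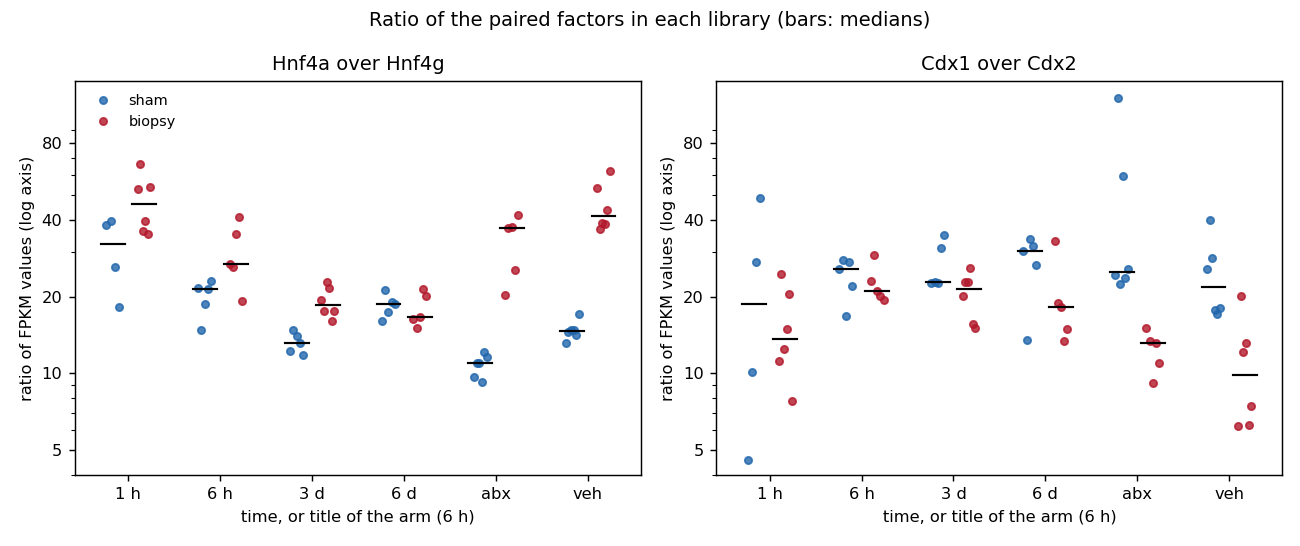
Ratio of Hnf4a to Hnf4g FPKM and of Cdx1 to Cdx2 FPKM within each library, on a log axis, for shams and biopsies of the 4 times and both arms, with bars at the group medians. The Hnf4a to Hnf4g ratio of biopsies lies above all shams at 3 d and in both arms, and the Cdx1 to Cdx2 ratio of biopsies lies below all shams in the abx-titled arm.

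Of 15 listed HNF4 target genes, 10 were tested in each cohort, and Apoa1, Apoa4, Apoc3, Mttp and Fabp1 were below the filter. None rose and 2 fell at 1 h, 4 rose and 3 fell at 6 h, 2 rose and 1 fell at 3 d, and 2 rose and 5 fell at 6 d. In each arm 3 rose and 3 fell. From 1 h to 6 d, 9.38%, 24.3%, 32.1% and 34.1% of all genes rose, and 45.0%, 43.2%, 10.5% and 10.2% fell. In the abx- and veh-titled arms 26.5% and 25.7% of all genes rose, and 43.9% and 49.0% fell. The median changes of the listed genes were -0.10, 0.06, -0.05 and -0.28 from 1 h to 6 d. The medians over all genes were -0.18, -0.12, 0.09 and 0.11. The split at 1 h became 2 higher and 1 lower under median of ratios, and none higher and 5 lower with epithelial scaling.

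Single HNF4 targets moved in opposite directions. Maoa, a monoamine oxidase, fell at 6 h from 132 to 56.6 FPKM (-1.22 ± SE 0.10, adjusted p = 4.41e-13) and at 6 d from 151 to 74.1 FPKM (-1.02 ± SE 0.10, adjusted p = 2.61e-10). Creb3l3, a membrane-bound factor of lipid metabolism, rose from 4.01 to 15.6 FPKM at 6 h (1.71 ± SE 0.23, adjusted p = 4.51e-08) and from 1.43 to 11.5 FPKM at 3 d (2.39 ± SE 0.22, adjusted p = 7.29e-11). In the arms Creb3l3 rose (2.02 and 1.66) and Maoa fell (-1.71 and -1.36) in both.

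Cdx1 (ENSMUSG00000024619.8; chr18:61018862-61036199, minus strand) fell by a small amount at 1 h and in both arms. At 1 h its shams were at 161, 175, 182 and 213 FPKM and its biopsies between 137 and 156 (median 145). At 6 h shams were at 163, 167, 170.1, 174 and 190.2 FPKM and biopsies at 146, 149, 157, 167 and 171. The groups were separate at 1 h and overlapped at 6 h.

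At 3 d, Cdx1 shams were at 120.3, 138, 155, 157 and 161 FPKM and biopsies between 129.5 and 160.1 (median 145). At 6 d, shams were at 142, 144, 144, 156 and 165 FPKM and biopsies at 123, 132, 151, 156 and 165. The groups overlapped at both times. The changes were -0.32 ± SE 0.08 (adjusted p = 0.00100) at 1 h, -0.13 (adjusted p = 0.139) at 6 h, 0.01 (adjusted p = 0.933) at 3 d and -0.05 (adjusted p = 0.618) at 6 d. The 1 h call was lost under median of ratios (-0.09, adjusted p = 0.353), and the 6 h value passed with quantile normalization (-0.23, adjusted p = 0.00853).

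Cdx1 in the abx-titled arm lay between 73.8 and 88.0 FPKM in shams (median 76.7) and at 55.7, 57.8, 61.6, 65.0 and 73.2 in biopsies. The veh-titled shams lay between 65.0 and 70.9 FPKM (median 68.9) and biopsies between 47.6 and 59.6 (median 57.9). Sham and biopsy did not overlap within either arm. Biopsy means were 79.9% and 81.1% of sham, with changes of -0.32 ± SE 0.07 (adjusted p = 0.000308) and -0.30 ± SE 0.07 (adjusted p = 0.000323). The veh-titled call was lost under median of ratios (-0.05, adjusted p = 0.509).

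Cdx2 (ENSMUSG00000029646.3; chr5:147300805-147307270, minus strand), lower per length than Cdx1 in every group, rose in both arms and passed at no time of the time course. Its 1 h shams were spread over 3.72, 7.79, 17.3 and 35.0 FPKM and its biopsies between 5.67 and 20.1 (median 10.6). At 6 h shams were at 5.99, 6.38, 6.96, 7.96 and 10.2 FPKM and biopsies at 5.37, 6.48, 7.25, 8.15 and 8.63. The 1 h shams thus differed among themselves more than any biopsy group did.

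At 3 d, Cdx2 shams were at 4.45, 4.52, 5.31, 6.89 and 7.04 FPKM and biopsies between 5.65 and 9.51 (median 7.45). At 6 d, shams were at 4.57, 4.68, 4.93, 5.41 and 11.6 FPKM and biopsies at 4.55, 6.79, 7.0, 10.5 and 12.3. All these groups overlapped. The changes were -0.18 ± SE 0.33 (95% interval -0.86 to 0.50, adjusted p = 0.667) at 1 h, -0.05 (adjusted p = 0.904) at 6 h, 0.35 (adjusted p = 0.386) at 3 d and 0.36 (adjusted p = 0.386) at 6 d.

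The highest 1 h sham for Cdx2, sham 1, also had 71.7 FPKM of summed B cell markers, and the highest 6 d sham, sham 2, had 108. Abx-titled sham 3, the highest of its group for Cdx2 at 3.42 FPKM, had 70.2. The library richest in these markers, 6 d biopsy 3 at 302 FPKM, had Cdx2 at 6.79 FPKM, below its group median of 7.0. Without the libraries at or above 50 FPKM of these markers, the Cdx2 change was 0.31 at 1 h (adjusted p = 0.385) and 0.63 at 6 d (adjusted p = 0.0905). The part of B cell RNA in the Cdx2 values was not tested.

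Cdx2 in the abx-titled arm lay between 0.616 and 3.42 FPKM in shams (median 3.04) and at 4.30, 4.62, 5.07, 5.58 and 6.31 in biopsies. In the veh-titled arm, shams lay between 1.63 and 4.15 FPKM (median 3.26) and biopsies between 2.88 and 9.57 (median 5.46). The groups were separate in the abx-titled arm and overlapped in the other. Biopsy means were 2.07-fold and 1.97-fold higher, with changes of 0.90 ± SE 0.27 (adjusted p = 0.00527) and 0.74 ± SE 0.26 (adjusted p = 0.0125). Without abx-titled shams 2 and 5, which had the highest small intestinal marker sums, the first was 0.75 (adjusted p = 0.0148).

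The paralogs thus moved in opposite directions in the arms. The median ratio of Cdx1 to Cdx2 within a library was 25.0 in abx-titled shams and 13.1 in biopsies, and 21.8 and 9.81 in the veh-titled arm. By two-sided exact permutation tests, adjusted over 6 comparisons, the ratio was 0.334-fold in abx-titled biopsies (adjusted p = 0.026, no overlap) and 0.425-fold in veh-titled biopsies (adjusted p = 0.026, with overlap). The veh-titled call was lost on leaving out any of veh-titled biopsies 1, 3, 4, 5 and 6 or shams 1, 2 and 3 (adjusted exact p = 0.0519). No time course comparison of this ratio passed, with adjusted exact p from 0.199 at 3 d to 0.838 at 1 h.

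Of 13 listed genes linked to the caudal-related factors, 11 were tested at the 4 times and 10 in the arms, and Sis and Lct were below the filter. At 1 h, 3 rose and 3 fell, at 6 h 6 rose and 2 fell, at 3 d 4 rose and 1 fell, and at 6 d 3 rose and 4 fell. Under median of ratios the 1 h split was 4 higher and none lower. In the arms 5 rose and 2 fell (abx-titled), and 4 rose and 2 fell (veh-titled). The shares of all genes that rose and fell are those given beside the HNF4 list.

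Krt20, a keratin of differentiated surface cells, rose from 376 to 604 FPKM at 1 h (0.68 ± SE 0.11, adjusted p = 4.01e-06) and from 324 to 1069 FPKM at 6 h (1.72 ± SE 0.11, adjusted p = 1.82e-15), and fell at 6 d (-0.40, adjusted p = 0.0037). Isx, an intestine-specific homeobox factor, was at 0.528 FPKM in 3 d shams and 5.81 in biopsies (2.18 ± SE 0.15, adjusted p = 5.88e-14). At 6 d it was at 0.348 and 8.93 FPKM (2.87 ± SE 0.16, adjusted p = 2.21e-16). Alpi, the intestinal alkaline phosphatase, rose from 0.357 to 5.74 FPKM at 6 h (2.31 ± SE 0.09, adjusted p = 2.55e-21). These sham means of Isx and Alpi were under the 1 FPKM of the filter, which counts libraries of any group. Both genes thus had little room to fall there, and the counts of the list include them. Mep1a, a brush border metalloprotease, fell in every comparison, from -0.31 at 1 h to -1.34 in the abx-titled arm, though its 1 h call was lost under median of ratios (-0.09, adjusted p = 0.633).

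Elf3 (ENSMUSG00000003051.13; chr1:135253575-135258568, minus strand) fell at 1 h and rose in the abx-titled arm. It had the highest FPKM of the 6 genes in every group. At 1 h shams were at 309.8, 363, 437 and 502 FPKM and biopsies between 271 and 339 (median 295). At 6 h shams were at 287, 336, 337, 340.0 and 385 FPKM and biopsies at 344, 368, 408, 415 and 423. The groups overlapped at both times, with biopsies mostly below shams at 1 h and mostly above them at 6 h.

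At 3 d, Elf3 shams were at 317, 323, 375, 376 and 400.0 FPKM and biopsies between 353 and 398 (median 365). At 6 d, shams were at 313, 340.4, 353, 368 and 415 FPKM and biopsies at 356, 358, 369.6, 399 and 482. Both pairs of groups overlapped. The changes were -0.41 ± SE 0.10 (adjusted p = 0.000963) at 1 h, 0.22 ± SE 0.10 (adjusted p = 0.0519) at 6 h, 0.06 (adjusted p = 0.662) at 3 d and 0.13 (adjusted p = 0.296) at 6 d.

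The 1 h call of Elf3 was lost under median of ratios (-0.18, adjusted p = 0.226) and kept without the B cell-rich sham (-0.29, adjusted p = 0.0185). The 6 h value passed under median of ratios (0.36, adjusted p = 0.00595), with epithelial scaling, in a fit of the 6 h groups only, and without 6 h biopsy 1, biopsy 5 or sham 5.

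In the abx-titled arm, Elf3 lay between 131 and 209 FPKM in shams (median 149.9) and at 192, 198, 200.4, 227 and 229 in biopsies. In the veh-titled arm, shams lay between 164 and 191 FPKM (median 169) and biopsies between 165 and 220.5 (median 188). The groups overlapped in both arms. The abx-titled mean was 1.34-fold higher in biopsies (0.43 ± SE 0.10, adjusted p = 0.000512), and the veh-titled change was 0.11 ± SE 0.09 (adjusted p = 0.279), or 0.37 (adjusted p = 0.00395) under median of ratios. The difference between the arms, 0.32 ± SE 0.14, did not pass (adjusted p = 0.188), and passed without abx-titled shams 2 and 5 (0.44, adjusted p = 0.0332). An annotated antisense transcript, Gm26642, spans Elf3 and its own level was not analysed here.

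Of 13 genes linked to ELF3 or encoding other epithelial ETS factors, 9 were tested. At 1 h 3 rose and 2 fell, at 6 h 3 rose and 3 fell, at 3 d 4 rose and none fell, and at 6 d 5 rose and 1 fell. In the arms 3 rose and 1 fell (abx-titled), and 3 rose and 4 fell (veh-titled), the latter becoming 4 higher and none lower under median of ratios. The 3 d split became 3 higher and 2 lower under median of ratios and epithelial scaling, and 4 higher and 2 lower with quantile normalization. The shares of all genes are again those given beside the HNF4 list. Ehf, an epithelial ETS factor related to Elf3, fell from 68.4 to 40.7 FPKM at 1 h (-0.74 ± SE 0.06, adjusted p = 8.61e-13). Ptgs2, which encodes cyclooxygenase 2, rose from 0.893 to 10.004 FPKM at 1 h (2.48 ± SE 0.32, adjusted p = 4.55e-08). At 6 h it rose from 0.620 to 11.7 FPKM (2.75 ± SE 0.31, adjusted p = 1.97e-09). Its sham means at these times were under the filter's level too, with little room to fall. Krt8, a simple epithelial keratin, rose at 1 h, 6 h and in both arms (0.80, 0.87, 1.04 and 0.97). At 6 d Krt8 was lower (-0.20, adjusted p = 0.0321), a call lost under 11 of 19 alternatives, among them quantile normalization (-0.022, adjusted p = 0.854) and leaving out any 1 of 6 d biopsies 2, 3 or 5 or 6 d shams 1, 3 or 5 (adjusted p up to 0.108).

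The list of other gut epithelial transcription factors, 26 genes of which 21 were tested at the 4 times and 20 in the arms, places these 6 genes among their class. At 1 h, 16 of 21 fell and 2 rose (median -0.51), or 12 and 2 under median of ratios, and at 6 h 13 fell and 3 rose (median -0.33). At 3 d 4 fell and 5 rose, and at 6 d 5 fell and 7 rose, a split that became 6 lower and 4 higher under median of ratios at both times. In the abx-titled arm, 8 of 20 fell and 4 rose, or 8 and 7 under median of ratios. In the veh-titled arm 14 fell and 4 rose, or 9 and 5 under median of ratios. Of all genes, 45.0% fell at 1 h, 43.2% at 6 h, 10.5% at 3 d and 10.2% at 6 d. The shares that rose were 9.38%, 24.3%, 32.1% and 34.1%. In the arms 43.9% and 49.0% of all genes fell, and 26.5% and 25.7% rose.

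Atoh1, the secretory lineage factor, fell from 17.9 to 7.55 FPKM at 1 h (-1.12 ± SE 0.14, adjusted p = 2.01e-08) and from 24.3 to 8.53 FPKM at 6 h (-1.43 ± SE 0.14, adjusted p = 3.43e-11). Ascl2, a stem cell factor, fell from 4.195 to 1.31 FPKM at 1 h (-1.17, adjusted p = 1.98e-05). Sox9, a crypt base factor, rose from 15.0 to 36.7 FPKM at 1 h (1.25 ± SE 0.15, adjusted p = 1.48e-08). Prdm1, which encodes BLIMP1, rose at 6 h, 3 d and 6 d and in both arms (0.91, 0.70, 0.73, 0.94 and 0.92).

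**Figure D5:**
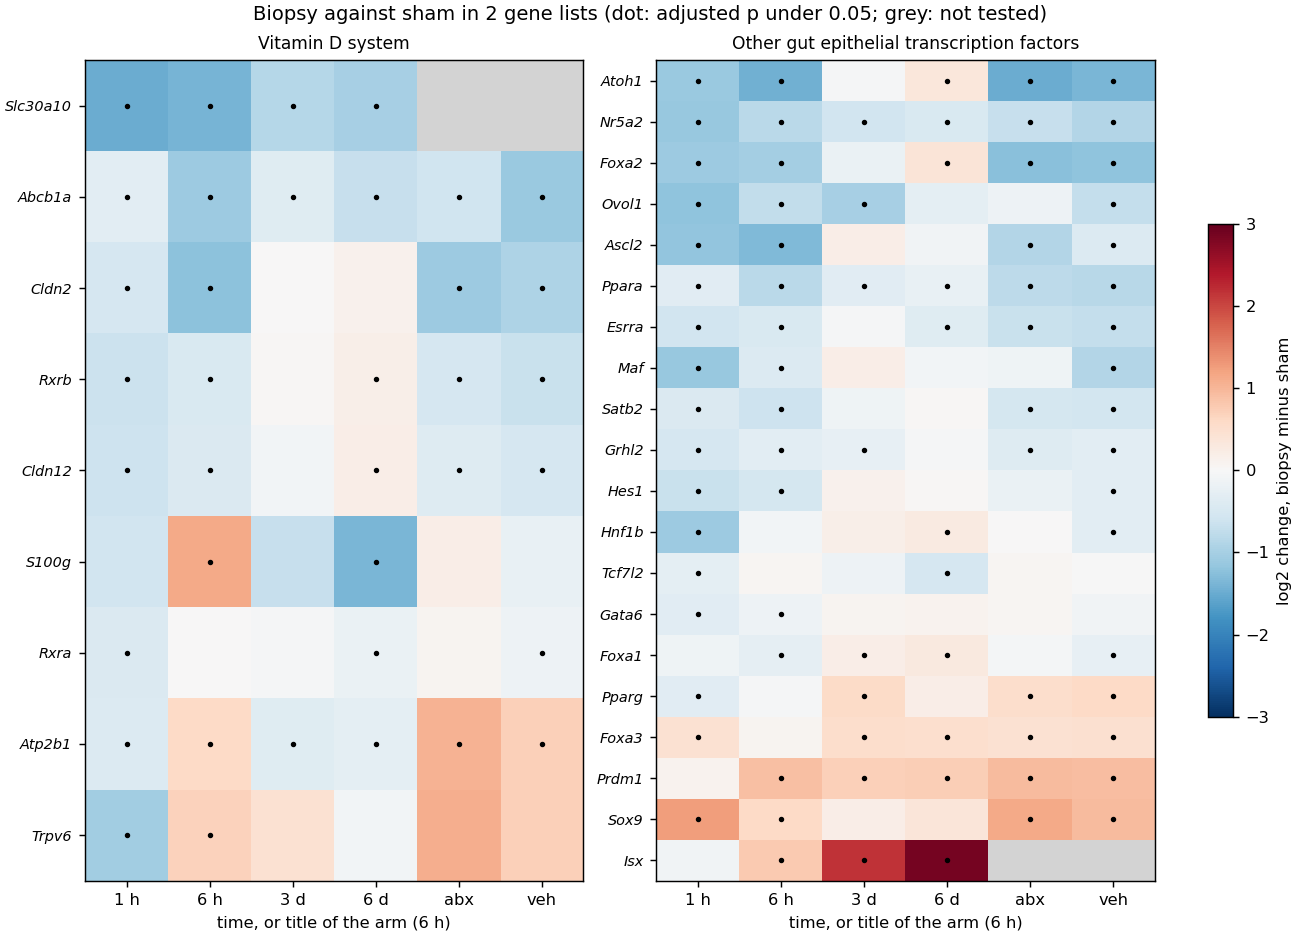
Log2 change in biopsies against shams for genes of the vitamin D list (left) and of the other gut epithelial transcription factors (right), in colour from lower (blue) to higher (red), with the 4 times and both arms as columns, a dot where limma's adjusted p was under 0.05 and grey where a gene was not tested. Most genes of both panels are lower at 1 h, and Isx is the most strongly higher at 6 d (2.87).

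Between times, the biopsy effect was compared through interaction terms, in which neighbouring steps share libraries. From 1 h to 6 h, 2 of the 6 genes changed (46.9% of all genes did). The Hnf4a effect decreased by 0.64 ± SE 0.08 (adjusted p = 9.25e-08), and the Elf3 effect increased by 0.63 ± SE 0.14 (adjusted p = 0.000474). These were shifts in opposite directions, since Hnf4a began above sham and Elf3 below it. The Hnf4g effect changed by -0.46 ± SE 0.20 (adjusted p = 0.0594), and this passed under median of ratios (-0.53, adjusted p = 0.0398) and without 1 h biopsy 2, 1 h sham 5, 6 h biopsy 6 or 6 h sham 4.

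None of the 6 passed limma's adjusted threshold from 6 h to 3 d (52.2% of all genes did) or from 3 d to 6 d (1.84%). At an unadjusted p below 0.05 there was 1 in each step, Vdr in the first and Hnf4g in the second (0.41 ± SE 0.20, adjusted p = 0.326). Between the arms, none of the 6 biopsy effects differed at the adjusted threshold (3.31% of all genes did), and 2 had an unadjusted p below 0.05, Vdr and Elf3.

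Levels in shams were not constant. Over the 4 times, 4 of the 6 genes differed between sham groups (59.0% of all genes did): Hnf4g (adjusted p = 2.73e-06), Vdr (0.00126), Cdx1 (0.00225) and Hnf4a (0.00841), all from limma's F test. Mean Hnf4g in shams was 6.98 ± SD 2.61 FPKM at 1 h and 15.0 ± SD 1.32 at 3 d, and mean Vdr was 97.9 ± SD 15.5 at 1 h and 167 ± SD 13.4 at 6 d. The collection time cannot be told apart from any other difference between the sham groups. Cdx1 lost its call with epithelial scaling (adjusted p = 0.0676) and quantile normalization (adjusted p = 0.238).

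Between the arms' shams, 1 of 6 genes differed (12.6% of all genes did): Hnf4a was lower in abx-titled shams (-0.27 ± SE 0.08, adjusted p = 0.0215), a call lost without abx-titled sham 3 (adjusted p = 0.0517) or veh-titled sham 3 (adjusted p = 0.0531). It was also lost under median of ratios (-0.21, adjusted p = 0.132) and epithelial scaling (-0.22, adjusted p = 0.0713), under both of which Cdx1 was higher in abx-titled shams (0.25 in each, adjusted p = 0.0209 and 0.0278). Between the arms' biopsies, none of the 6 passed limma's threshold (15.0% of all genes did) and 3 had an unadjusted p below 0.05. These were Cdx1, Hnf4a and Vdr, with adjusted p from 0.0561 to 0.0917. Leaving out abx-titled biopsy 6 moved Cdx1 and Hnf4a past the threshold, veh-titled biopsy 3 moved Hnf4a, and abx-titled biopsy 3 or veh-titled biopsies 4 or 5 moved Vdr.

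In the order of group means within the time course, Vdr was highest in 6 d shams (167 ± SD 13.4 FPKM) and lowest in 1 h biopsies (54.7 ± SD 10.6), and all groups of biopsies ranked below all sham groups. Of its 7 neighbouring pairs only 6 h shams and 1 h shams had separate ranges. Hnf4a was highest in 1 h biopsies (277 ± SD 17.4) and next in 6 d shams (212 ± SD 6.92), its 1 pair with separate ranges. For Cdx1, Cdx2, Hnf4g and Elf3 the ranges of all 7 neighbouring pairs overlapped.

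The genes whose group pattern was most like each member were found by the root mean square difference of log2 levels, centred within each cohort, over all 12 groups and 6196 candidate genes. Akr1c14 was closest to Vdr (0.196, beside a median candidate at 0.704), followed by Hoxa11os and Fahd1. Ssx2ip (0.113, median candidate 0.502), Deptor and Rmnd5a were closest to Hnf4g, and Chdh (0.101, median 0.305), Ddx5 and Gse1 to Hnf4a. Sgta (0.0469, median 0.236), Mrpl2 and Sirt7 were closest to Cdx1, and Tln1 (0.0684, median 0.249), Mprip and Csnk1d to Elf3. Cdx1 and Elf3 themselves varied little over the groups (root mean square 0.143 and 0.139, beside 0.713 for Vdr). Gcg (0.168, median 0.420) and Pparg were among the 3 genes closest to Cdx2. Members were left out of the candidates, so likeness between members was not examined.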

How the data were processed

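The authors aligned the reads with STAR and quantified genes with Cufflinks on mm10, per the submitters' processing notes, which name no version or annotation. RNeasy extraction, poly(A) selection and the TotalScript kit were used, per the labels' protocols. The authors deposited 1 FPKM value per gene symbol and library. FPKM keep no counts, so no counting interval was computed.

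Values were joined by symbol (23990 shared by both cohorts) and tested within each cohort as log2(FPKM + 1), a scale that shrinks the changes of low genes, for genes at 1 FPKM or more in at least 4 libraries. limma 3.58.1 in R 4.3.3 fitted all groups of a cohort, with a mean-variance trend and Benjamini-Hochberg adjustment over all genes tested. Called means adjusted p under 0.05. The test was checked on simulated data. Ratios within a library were compared by exact permutation tests in scipy 1.17.1. Genes of each list were named as the 6 with the largest called change per comparison, from which examples are given. Coordinates and gene IDs came from GENCODE (mm10) and promoters from RefSeq (GRCm38.p6).

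Median of ratios scaling divides a library by its median ratio to the geometric mean library, and epithelial scaling by its mean pan-epithelial marker level. The median change of all genes was -0.18, -0.12, 0.09 and 0.11 at 1 h, 6 h, 3 d and 6 d, and -0.12 and -0.17 in the abx- and veh-titled arms, which median of ratios removes. Relative depth, from the steps of low values, spanned 1.51-fold and 1.58-fold. The members, lists and tests were chosen with earlier results of these data known. No libraries had identical values, and the labels give no batch. Some genes tested in the lists are not reported here by name, though the counts of their lists include them.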

Additional observations from a re-analysis of the deposited data

Results flagged for a closer look

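Of 72 groups checked for 1 library far from the rest, 2 stood out, a smaller share than the about 1 in 20 that chance gives. Cdx2 was at 11.6 FPKM in 6 d sham 2, beside 4.57 to 5.41 in the other 6 d shams. The same library had 108 FPKM of summed B cell markers and the highest small RNA share of the time course, 24.1%, and the part of these in its Cdx2 value was not tested. Vdr was at 123 FPKM in 3 d biopsy 1, beside 80.7 to 95.1 in the other 3 d biopsies, and still below the lowest 3 d sham at 134.

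The biopsy effect differed between 1 h and 6 h for Elf3, by 0.63 on the log2 scale (adjusted p = 0.000474), and for Hnf4a, by -0.64 (adjusted p = 9.25e-08), both by limma's interaction term. Hnf4a went from 0.51 to -0.13 and Elf3 from -0.41 to 0.22.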

How the results depend on the processing

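Of 1164 values of single members under alternatives, 1075 kept direction and side of the threshold. Vdr kept its fall and its call in every alternative of all 6 comparisons, as did Hnf4a at 1 h and 6 d, Hnf4g at 6 h, 3 d and in both arms, Cdx2 in both arms, and Cdx1 and Elf3 in the abx-titled arm. Leaving out B cell-rich libraries or abx-titled shams 2 and 5, and the ratio alternatives, were chosen after seeing the data. The cause of the shifts below was not tested.

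Median of ratios cut the members called at 1 h to 2 and gave 1 between the arms' biopsies (Hnf4a, -0.28). From 6 h to 3 d it also gave 1, which was a member other than Vdr. It turned the sign at 1 h of Cdx2 (0.026), Hnf4g (0.066) and Gpa33 (0.079), at 6 h of Cdx1 (0.011), Cdx2 (0.076) and Hnf4a (0.0089), at 3 d of Cdx1 (-0.10) and Elf3 (-0.053), and in the veh-titled arm of Hnf4a (0.24) and Rxra (0.082). Quantile normalization turned Hnf4g at 1 h (0.069), Cdx2 at 6 h (0.019), Cdx1 at 3 d (-0.067), Hnf4a in the abx-titled arm (-0.050) and Elf3 in the veh-titled arm (-0.026). Epithelial scaling turned Cdx1 (-0.10) and Elf3 (-0.058) at 3 d and Hnf4a in the abx-titled arm (-0.063). Without B cell-rich libraries Cdx2 at 1 h was 0.31, Cdx1 at 6 d 0.021 and Hnf4a in the abx-titled arm -0.0063, and 0 members differed between the arms' shams. Without abx-titled shams 2 and 5, 1 member differed between the arms' biopsy effects and 2 between their shams, as also with only the groups compared (2).

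Leaving out 1 library gave 4 members at 1 h, 2 to 4 at 6 h, 2 at 3 d and 6 d, 5 and 4 in the arms, 2 to 3 from 1 h to 6 h, 0 to 1 from 6 h to 3 d, 0 to 1 between the arms' effects, 0 to 2 between their shams and 0 to 2 between their biopsies, and 4 to 6 for shams across times (5 or more without 1 h shams 4 or 5 or 6 d sham 2). Values that turned ranged for Cdx2 from -0.66 to 0.31 at 1 h and -0.11 to 0.055 at 6 h, for Hnf4g at 1 h from -0.25 to 0.068, for Cdx1 from -0.059 to 0.046 at 3 d and -0.10 to 0.0059 at 6 d, and for Hnf4a from -0.036 to 0.079 and -0.050 to 0.0073 in the abx- and veh-titled arms. The log2 ratio of Hnf4a to Hnf4g at 6 d ranged from -0.12 to 0.0078 and that of Cdx1 to Cdx2 at 1 h from -0.75 to 0.38.

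Replicate numbers are shared between groups, but same-numbered libraries did not deviate together (correlations from -0.28 to 0.25, with no set having every pair over 0.1). With the replicate number as a block, 1 member changed from 6 h to 3 d (Vdr, 0.57, adjusted p = 0.00354), the Hnf4g change from 1 h to 6 h passed (-0.47, adjusted p = 0.00852), and no other call of a member moved. Without counts, the depth that limits low genes such as Cdx2 and Hnf4g is unknown.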
